A study of Mus musculus with 20 samples.

Results

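Hemoglobin and erythroid transcripts in the aging heart were followed through 5 genes, found in the table by their symbols: the α-globin genes Hba-a1 and Hba-a2, the β-globin genes Hbb-bs and Hbb-bt, and Alas2. They are 5 of the 15956 genes in the count table, and all 5 were among the 13991 genes that passed the filter on low counts. Their levels were described over the 4 diet groups as a measure of blood in the tissue.

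The samples were left ventricles of male mice, stored fresh frozen, from 5 mice in each of 4 diet groups. Mice of the normal protein (NP) group ate a diet with the usual amount of casein, and mice of the low protein (LP) group ate less casein. The high-fat diet (HF) kept the normal casein content, and the last diet joined high fat with the lower casein content (HF + LP). Diets that differed in casein or fat differed in carbohydrate too. All mice came from the Jackson Laboratory, with the strain not given in the sources used here, and began the diets in middle age. The labels give an age of 18 months, while the study's methods give a younger age at death. The mice were killed by CO2 and decapitation in the fed state, and no perfusion of the heart is described in those methods. RNA was measured by sequencing tags from the 3′ ends of transcripts, so a count stands for a transcript end and does not grow with gene length.

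Adult hemoglobin is a tetramer of α-globin and β-globin chains, each holding a heme. Red cell precursors in the bone marrow make globin RNA in great excess, and reticulocytes, the young red cells that enter the blood, still carry it after losing the nucleus. Alas2 is the erythroid form of the enzyme that starts heme synthesis, while its relative Alas1 serves other tissues, the heart among them. A piece of ventricle holds blood in its chambers and vessels, so globin RNA in such a piece is commonly read as red cell RNA. In bulk tissue, fewer cells of a type and less RNA per cell cannot be told apart.

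Hba-a1 (ENSMUSG00000069919, chr11:32283511-32284465, plus strand) and Hba-a2 (ENSMUSG00000069917, chr11:32296489-32297298, plus strand) lie side by side on chromosome 11 of GRCm38. Hbb-bs (ENSMUSG00000052305, chr7:103826534-103828096, minus strand) and Hbb-bt (ENSMUSG00000073940, chr7:103812524-103813996, minus strand) lie side by side on chromosome 7, and Alas2 (ENSMUSG00000025270, chrX:150547375-150570638, plus strand) is on chromosome X. The 120 bases before each RefSeq transcription start are printed because the RNAs of these genes moved together from mouse to mouse. Capitals mark 4 motifs of 5 letters on either strand: the GATA motif (GATAA), the CACCC box (CACCC), the CCAAT box (CCAAT) and the TATA motif (TATAA). The sequences are from RefSeq, whose table held all 5 genes. The coordinates of these windows, on GRCm38.p6, are chr11:32283552-32283671 for Hba-a1, chr11:32296372-32296491 for Hba-a2, chr7:103827929-103828048 for Hbb-bs, chr7:103813924-103814043 for Hbb-bt and chrX:150547297-150547416 for Alas2.
Hba-a1: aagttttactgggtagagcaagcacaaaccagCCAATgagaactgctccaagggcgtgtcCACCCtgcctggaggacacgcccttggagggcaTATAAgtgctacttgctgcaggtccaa
Hba-a2: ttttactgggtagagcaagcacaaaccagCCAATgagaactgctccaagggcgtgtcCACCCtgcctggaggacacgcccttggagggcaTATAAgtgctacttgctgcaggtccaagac
Hbb-bs: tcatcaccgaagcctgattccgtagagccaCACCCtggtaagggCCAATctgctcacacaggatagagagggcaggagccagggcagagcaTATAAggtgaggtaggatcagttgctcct
Hbb-bt: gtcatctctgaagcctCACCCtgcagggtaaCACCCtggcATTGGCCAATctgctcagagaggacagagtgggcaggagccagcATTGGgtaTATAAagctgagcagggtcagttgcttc
Alas2: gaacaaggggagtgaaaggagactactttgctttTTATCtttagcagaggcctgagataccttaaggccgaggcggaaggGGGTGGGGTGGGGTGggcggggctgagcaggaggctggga

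In the 4 hemoglobin promoters the CACCC box, the CCAAT box and the TATA motif all stood within the 120 bases. The Alas2 window held the GATA motif once and the CACCC box 3 times, each on the reverse strand. The GATA motif, whose core the erythroid factor GATA1 can bind, was found once in the 250 bases before the start of each of the 5 genes, against 22.6% of all 32851 mouse promoter windows of that length. The CACCC box was in 52.0% of all windows, the CCAAT box in 33.8% and the TATA motif in 22.8%, and no CCAAT box was among the 250 letters before Alas2. The TATA motif can overlap its own reverse complement, which it did farther upstream of Alas2. The upstream stretches of Hba-a1 and Hba-a2 shared an unbroken run of 247 of 250 bases, while the longest run shared by Hbb-bs and Hbb-bt was 14 bases. These matches describe letters only.

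Sequence shared within each pair also limits the counts. In the last 300 bases of the transcripts, 66.8% of the stretches of 75 bases (the read length) of Hba-a1 were also in Hba-a2, and 59.7% of those of Hba-a2 were in Hba-a1. For Hbb-bs and Hbb-bt the shares were 29.6% and 29.2%, and no 75-base stretch was shared between Hba-a1 and Hbb-bs. The split of counts within each pair is therefore uncertain.

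Total counts ran from 12559607 to 23331907 per library. The summed level of 14 cardiomyocyte genes was 46388 to 78311 CPM (counts scaled to a common library total) in the 20 libraries, so the labelled tissue carried its markers throughout. LP mouse 20 stood apart by its lymphocyte RNA, with 807 CPM over 15 T and NK cell genes against 5.64 to 17.5 CPM in the other 19 libraries, and with 662 CPM over 13 B cell genes against at most 166 CPM. LP mouse 13 and HF mouse 1 had the highest sums of 10 atrial genes, 16756 and 13719.5 CPM, over a range that began at 345 CPM. Values without LP mouse 13 or LP mouse 20 are given where a result rests on them.

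The mice of the NP group were numbered 3, 4, 5, 6 and 8, those of the LP group 2, 5, 13, 15 and 20, and those of the HF and HF + LP groups 1 to 5, and values follow that order. Levels are CPM scaled by the TMM method. Hba-a1, the first of the α-globin genes, measured 2373, 948, 731, 1109 and 901 CPM on NP and 1523, 1146, 1241, 1589 and 2819 CPM on LP. It measured 1215, 2595, 1832, 1800.2 and 1538 CPM on HF and 1029, 2444, 3701, 1817 and 2118 CPM on HF + LP. In the NP group, 4 mice lay close together and mouse 3 lay well above them, inside the range of the other diets. Every pair of diets overlapped.

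Hba-a2, which encodes the same α-globin chain, measured 1403, 535, 438, 658 and 527 CPM on NP and 899.6, 680.0, 772, 964 and 1731 CPM on LP. It measured 751, 1610.2, 1076, 1111 and 923 CPM on HF and 635, 1447, 2223, 1122 and 1288 CPM on HF + LP. The same mice were high and low as for Hba-a1, and the ratio of Hba-a1 to Hba-a2 counts stayed between 1.61 and 1.77 in all 20 mice.

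Hbb-bs, one of the adult β-globin genes, measured 5889, 3708, 2102, 2897 and 2441 CPM on NP and 3737, 3306, 9334, 5094 and 7256 CPM on LP. It measured 3506, 7618, 4746, 4474 and 3942 CPM on HF and 2748, 6073, 10818, 3699 and 5259 CPM on HF + LP. Among LP mice the highest value for Hbb-bs was that of mouse 13, whereas for the α-globin genes it was that of mouse 20. The diets again overlapped.

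Hbb-bt, the partner of Hbb-bs, measured 782, 442, 291, 481 and 318 CPM on NP and 457, 482, 932, 625 and 1027 CPM on LP. It measured 520.0, 1264, 618, 554 and 504 CPM on HF and 398, 734, 1642, 483 and 636 CPM on HF + LP. HF mouse 2 and HF + LP mouse 3 stood far above the other 4 mice of their diets. The ratio of Hbb-bs to Hbb-bt counts ran from 6.02 to 10.02, a wider span than that of the α-globin pair.

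Alas2, the erythroid heme enzyme, measured 46.5, 17.1, 19.4, 21.2 and 17.6 CPM on NP and 29.1, 28.5, 29.6, 35.6 and 62.9 CPM on LP. It measured 26.7, 76.1, 36.3, 38.3 and 31.6 CPM on HF and 23.6, 43.6, 83.9, 30.1 and 40.7 CPM on HF + LP. Its high mice were NP mouse 3, LP mouse 20, HF mouse 2 and HF + LP mouse 3, the same 4 that led their diets for α-globin.

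**Figure D1:**
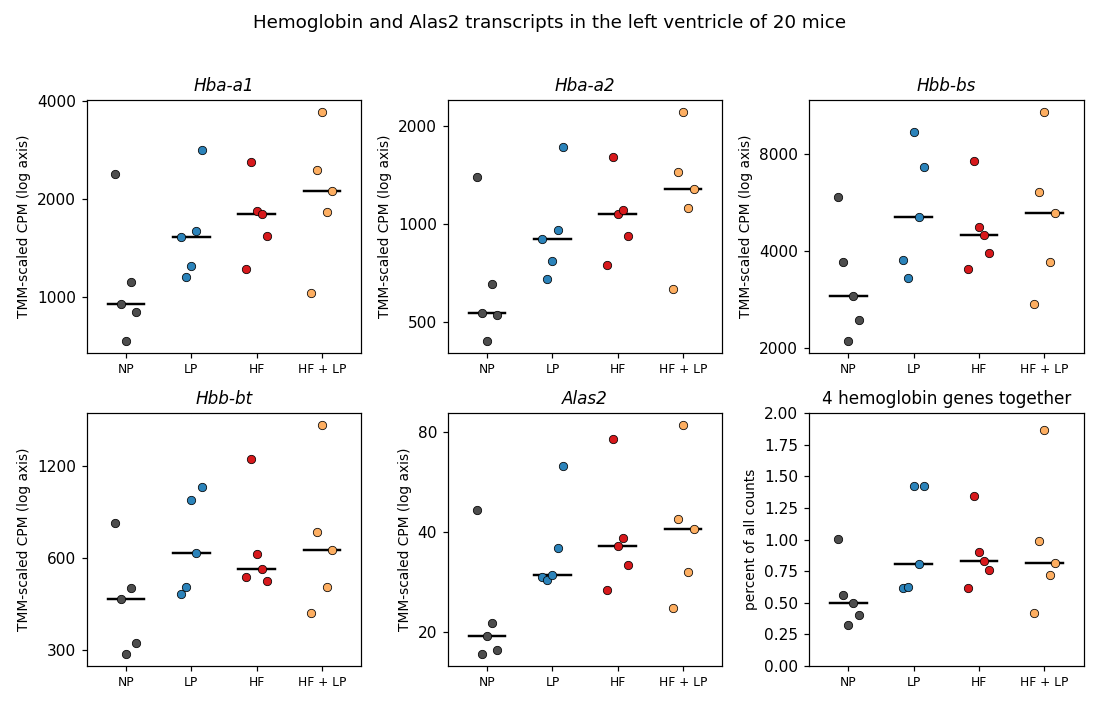
Each point is 1 mouse, with the diet on the horizontal axis and the TMM-scaled CPM (log axis) of Hba-a1, Hba-a2, Hbb-bs, Hbb-bt or Alas2 on the vertical axis. The last panel gives the percent of all counts from the 4 hemoglobin genes on a linear axis, and bars mark group medians. For Alas2 the NP mice lie between 17.1 and 46.5 CPM and the HF + LP mice between 23.6 and 83.9 CPM, and the diets overlap in every panel.

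Together the 4 hemoglobin genes took 0.557% ± 0.265 of all counts on NP (SD, n = 5), 0.977% ± 0.412 on LP, 0.890% ± 0.275 on HF and 0.963% ± 0.545 on HF + LP. The lowest of the 20 mice was NP mouse 5 at 0.323% and the highest was HF + LP mouse 3 at 1.86%, a 5.78-fold range. The widest 95% Wilson interval, which covers counting error only, reached 0.00636 percentage points to either side. Per 100 counts of the cardiomyocyte genes, hemoglobin counts numbered 7.98 ± 3.28 on NP, 16.2 ± 8.95 on LP, 13.8 ± 3.47 on HF and 15.99 ± 10.4 on HF + LP.

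The span of each gene over the 20 mice was alike: 5.06-fold for Hba-a1, 5.08-fold for Hba-a2, 5.15-fold for Hbb-bs, 5.64-fold for Hbb-bt and 4.91-fold for Alas2. HF + LP mouse 3 was the highest for all 5 genes. NP mouse 5 was the lowest for the 4 hemoglobin genes, and NP mouse 4 for Alas2. Within diets the SD of log2 CPM was 0.57 for Hba-a1, 0.57 for Hba-a2, 0.61 for Hbb-bs, 0.62 for Hbb-bt and 0.59 for Alas2, against a median of 0.25 over the 10158 genes with a base mean (the mean scaled count over the libraries) above 50. All 5 genes were thus at or above percentile 92.7 of spread between mice fed alike. Among the 115 genes with counts at least as high as those of Hbb-bt, the hemoglobin genes ranked 8, 9, 11 and 12 by this spread, behind 7 genes led by Nppa, the atrial natriuretic peptide gene, at 2.55.

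The comparison of HF with NP asked how a high-fat diet changed the ventricle at normal protein intake. Alas2 had the largest difference, with a mean of 41.8 ± 19.7 CPM on HF against 24.4 ± 12.5 on NP (SD, n = 5 each). The log2 fold change of Alas2 was 0.78 (SE 0.36, 95% interval 0.03 to 1.53), with an unadjusted p of 0.0434 and an adjusted p of 0.362 by edgeR's quasi-likelihood test. Hba-a1 averaged 1796 ± 511 CPM on HF and 1213 ± 663 on NP, a log2 fold change of 0.57 (SE 0.34, adjusted p = 0.520). For Hba-a2, with means of 1094 ± 322 and 712 ± 394 CPM, it was 0.62 (SE 0.34, adjusted p = 0.471). The β-globin genes were close to these values, at 0.51 (SE 0.36, adjusted p = 0.616) for Hbb-bs and 0.58 (SE 0.37, adjusted p = 0.567) for Hbb-bt. By the study's thresholds (adjusted p under 0.01 and base mean over 50), 0 of the 5 genes passed, against 37 of 13991 genes tested, or 0.264% (163 genes by DESeq2, and 20 to 69 with 1 mouse left out, the most without LP mouse 13). Exact two-sided permutation tests of log2 CPM gave p = 0.0952 for Hba-a1, 0.0794 for Hba-a2, 0.135 for Hbb-bs, 0.151 for Hbb-bt and 0.0635 for Alas2, where the smallest p that 5 against 5 allows is 0.00794. NP mouse 3 and HF mouse 2 carried weight in opposite directions: without the former the log2 fold changes were 0.96 for Hba-a1, 1.02 for Hba-a2, 0.80 for Hbb-bs, 0.85 for Hbb-bt and 1.15 for Alas2, and without the latter 0.40, 0.44, 0.29, 0.25 and 0.45. None of these passed.

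The comparison of LP with NP asked the same of protein restriction without the high-fat diet. Hbb-bs averaged 5745 ± 2528 CPM on LP and 3407 ± 1512 on NP (SD, n = 5 each), a log2 fold change of 0.75 (SE 0.36, 95% interval 0.0076 to 1.5001, unadjusted p = 0.0479, edgeR adjusted p = 0.688). Without LP mouse 13 this value was 0.50. The other genes were at 0.46 for Hba-a1, 0.50 for Hba-a2, 0.61 for Hbb-bt and 0.61 for Alas2, with SE of 0.34 to 0.37. Their adjusted p by edgeR was between 0.787 (Alas2) and 0.8498 (Hba-a1). Again 0 of the 5 genes passed, and 0 of all 13991 genes did (0%), with 1014 genes at an unadjusted p under 0.05 and 4 genes called by DESeq2. The exact permutation p was 0.206 for Hba-a1, 0.190 for Hba-a2, 0.103 for Hbb-bs, 0.111 for Hbb-bt and 0.0873 for Alas2. Without LP mouse 20, the lymphocyte-rich library, the log2 fold change was 0.18 for Hba-a1, 0.22 for Hba-a2, 0.66 for Hbb-bs, 0.43 for Hbb-bt and 0.34 for Alas2. Without NP mouse 3 the values were 0.85 for Hba-a1, 0.90 for Hba-a2, 1.04 for Hbb-bs, 0.88 for Hbb-bt and 0.98 for Alas2, and none passed.

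Protein restriction under a high-fat diet was read from HF + LP against HF. The log2 fold changes were 0.31 for Hba-a1, 0.30 for Hba-a2, 0.24 for Hbb-bs, 0.17 for Hbb-bt and 0.09 for Alas2, each with an edgeR adjusted p of 0.999. None of the 5 genes passed, and 0 of 13991 genes did (0%), with 677 genes at an unadjusted p under 0.05 and 16 by DESeq2. Without HF + LP mouse 3 the values turned negative for Hbb-bs (-0.14), Hbb-bt (-0.31) and Alas2 (-0.29), and Hba-a1 and Hba-a2 were at 0.0323 and 0.0254. The 95% interval for Alas2 ran from -0.65 to 0.83.

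Added fat under protein restriction was read from HF + LP against LP. Hba-a1 and Hba-a2 had log2 fold changes of 0.42 and 0.41 (edgeR adjusted p = 0.562 and 0.568), whereas Hbb-bs was at -0.01 (adjusted p = 0.995). Without LP mouse 13, Hbb-bs was at 0.24. Hbb-bt and Alas2 were at 0.14 and 0.25 (adjusted p = 0.879 and 0.764). Without HF + LP mouse 3 the values were 0.15 for Hba-a1, 0.15 for Hba-a2, -0.38 for Hbb-bs, -0.33 for Hbb-bt and -0.11 for Alas2. None of the 5 genes passed, against 14 of 13991 genes, or 0.1% (84 by DESeq2, 0 from the 2 diets alone, and 1 to 15 with 1 mouse left out, the fewest without HF + LP mouse 2 or 4).

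The interaction, the effect of fat under low protein less its effect under normal protein, ranged from -0.15 for Hba-a1 to -0.52 for Hbb-bs and Alas2, with SE of 0.47 to 0.52. Its sign turned for Hba-a1 without LP mouse 20 (0.12), HF mouse 2 (0.0219) or HF + LP mouse 1 (0.0337), and for Hba-a2 without LP mouse 20 (0.0668). Its edgeR adjusted p was between 0.882 and 0.965, and 0 of 13991 genes passed (0%), with 1003 at an unadjusted p under 0.05 and 1 by DESeq2. In the test for any difference among the 4 diets, the unadjusted p was 0.112 for Hba-a1, 0.0903 for Hba-a2, 0.170 for Hbb-bs, 0.243 for Hbb-bt and 0.119 for Alas2. None of the 5 passed, against 67 genes, or 0.479%. Since HF, LP and HF + LP are set against shared groups, these comparisons are not independent of each other.

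**Figure D2:**
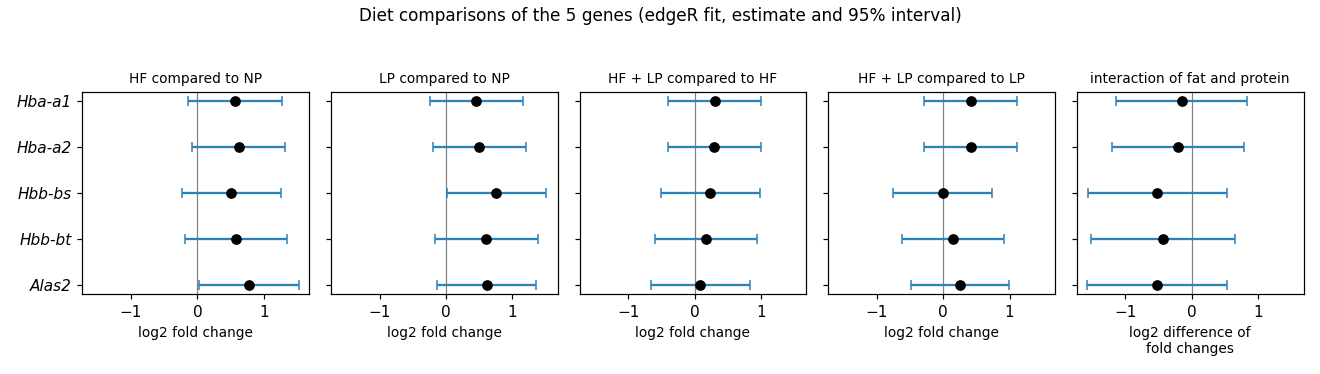
Points are log2 fold changes of the 5 genes in the 4 diet comparisons and the interaction, from the edgeR fit, and lines are 95% intervals. All intervals are wide, from -0.13 to 1.27 for Hba-a1 in HF against NP, and 2 of them lie wholly above 0 before adjustment, Alas2 in HF against NP and Hbb-bs in LP against NP.

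All 5 LP mice and all 5 HF mice were above the NP median for each of the 5 genes. Of the 5 HF + LP mice, 5 were above it for Hba-a1, Hba-a2 and Alas2 and 4 for Hbb-bs and Hbb-bt. The 5 genes rose and fell together from mouse to mouse, so these are not 5 separate results. How many of all genes have the same pattern was not counted. The library names carry a first number, 1, 2 or 3, whose meaning the sources used here do not give. Among libraries named 3, the hemoglobin share was 0.323% and 0.403% in the 2 NP mice, 0.622% and 0.804% in the 2 LP mice, 0.760% to 0.904% in the 3 HF mice and 0.723% to 1.86% in the 3 HF + LP mice. Among those named 2, the 2 NP mice were at 0.496% and 1.00%, LP mouse 20 at 1.42%, HF mouse 2 at 1.34% and HF + LP mouse 2 at 0.989%. Among those named 1, NP mouse 4 was at 0.562%, the 2 LP mice at 0.618% and 1.42%, HF mouse 1 at 0.614% and HF + LP mouse 1 at 0.421%. With this number as a term in the fit, the HF to NP difference was 0.73 for Hba-a1 and 0.89 for Alas2 (edgeR adjusted p = 0.217 and 0.124), and 0 of the 5 genes passed in any comparison.

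Markers of other cells were read beside these comparisons, and none of their genes was called in HF against NP or LP against NP. Platelet genes had a median log2 fold change of 0.18 in HF against NP (9 of 10 above 0) and 0.93 in LP against NP (10 of 10), beside -0.00097 and 0.02 over all genes. Neutrophil genes had medians of 0.89 (6 of 7 above 0) and 0.74 (6 of 7), in the same order. Circulating monocyte genes had medians of 0.78 (7 of 8 above 0) and 0.52 (6 of 8), of which the latter was 0.05 without LP mouse 20. B cell genes had medians of 0.29 and 1.30, and T and NK cell genes of 0.61 and 3.196. Without LP mouse 20 the LP medians were 0.66 for B cell genes and 0.78 for T and NK cell genes. The 14 cardiomyocyte genes had medians of -0.17 in HF against NP and -0.21 in LP against NP, where the latter was -0.12 without LP mouse 13. Atrial genes had medians of 0.88 and 1.222. These were -0.03 in HF against NP without HF mouse 1 and 0.05 in LP against NP without LP mouse 13. The part of these markers in the hemoglobin values was not tested.

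α-globin and β-globin did not keep one ratio in every mouse. Hbb-bs and Hbb-bt together gave 1.42 to 2.24 counts per count of Hba-a1 and Hba-a2 in 18 of the 20 mice. The ratio was 2.797 in NP mouse 4 and 5.10 in LP mouse 13. In LP mouse 13 the β-globin genes reached 9334 and 932 CPM, the first or second highest of the LP group, while Hba-a1 at 1241 CPM was the second lowest of the group.

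Alas2 in LP mouse 13 stood with α-globin and not with β-globin. It gave 14.7 counts per 1000 α-globin counts there, inside the range of 10.3 to 18.1 of the other mice. Per 1000 β-globin counts it gave 2.89, below the 4.12 to 8.57 of the other 19 mice, of which 4.12 was NP mouse 4. The same mouse had the highest ratio of Hbb-bs to Hbb-bt, 10.02, and the highest sum of atrial genes, 16756 CPM. NP mouse 4 had 1668 CPM of atrial genes, inside the range of its group. Whether these measures bear on the ratio was not tested. Without LP mouse 13 the ratio averaged 1.97 ± 0.233 on LP (SD, n = 4), against 2.09 ± 0.407 on NP, 1.91 ± 0.165 on HF and 1.78 ± 0.249 on HF + LP (n = 5 each).

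**Figure D3:**
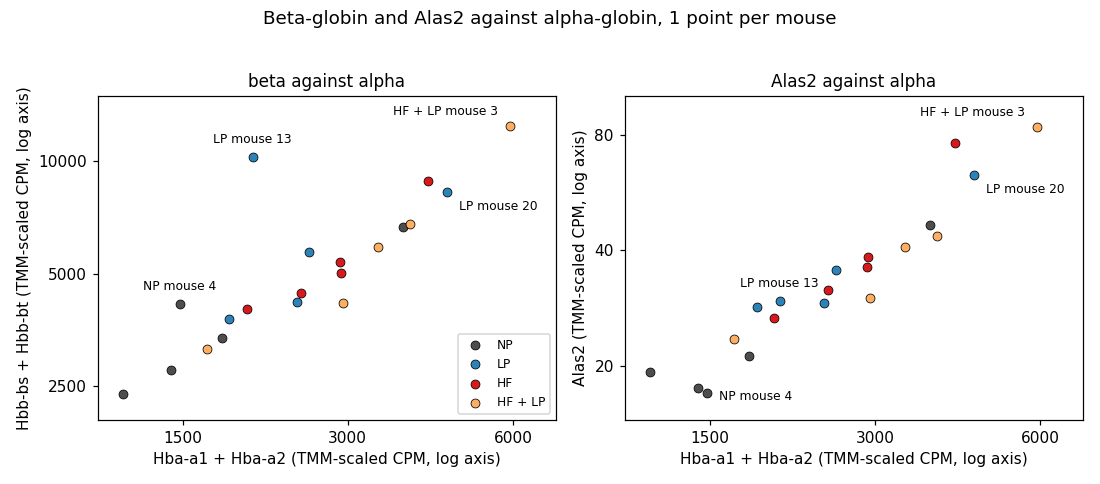
Each point is 1 mouse, with summed α-globin CPM on the horizontal axis and summed β-globin CPM or Alas2 CPM on the vertical axis, all on log axes, coloured by diet. LP mouse 13 and NP mouse 4, with β to α ratios of 5.10 and 2.797, lie above the band of the other mice on the left and with the other mice on the right.

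Across the 20 mice the 5 genes rose and fell together. With Hbb-bs, log2 CPM of Hbb-bt had r = 0.96 (Spearman rho = 0.95), Alas2 0.84 (0.86), Hba-a1 0.82 (0.85) and Hba-a2 0.82 (0.84), each with an adjusted permutation p of 0.00019 or less over 19 measures. On deviations from the diet means the values were 0.96, 0.81, 0.80 and 0.81, so the relation was also seen among mice fed alike. Without the 2 mice farthest from the median of Hbb-bs (HF + LP mouse 3 and LP mouse 13), r was 0.96 for Hbb-bt, 0.92 for Alas2, 0.94 for Hba-a1 and 0.93 for Hba-a2. All values of a mouse come from 1 library scaled to a common total, and Hbb-bs and Hbb-bt can also share reads.

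Of the other measures, Slc4a1, the anion exchanger of the red cell membrane, had r = 0.73 (rho = 0.80, adjusted permutation p = 0.00103), and it kept 0.74 without those 2 mice. The platelet chemokines Ppbp and Pf4 had r = 0.70 (rho = 0.70, adjusted p = 0.00184) and 0.60 (rho = 0.54, adjusted p = 0.0140), by permutation over 20 mice. Without the 2 mice their r was 0.49 and 0.43. Neither passed the threshold for correlations, an adjusted permutation p under 0.05, so these calls rest on the 2 mice, though r stayed above 0. Body weight had r = -0.03 (rho = 0.03, adjusted permutation p = 0.916) and total counts 0.32, with 0.11 without the 2 mice. Mb, the muscle oxygen store myoglobin, was at -0.42 (rho = -0.29, adjusted permutation p = 0.159), and Alas1, which makes heme outside red cells, at -0.29 (rho = -0.20, adjusted permutation p = 0.313). S100a8, S100a9, Ly6c2, Ighm and Hmox1, read as measures of other blood cells and of heme breakdown, gave r of 0.24 to 0.36, and none passed. On deviations from the diet means the r of S100a8 was -0.0064.

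To see which transcripts followed blood among mice on the same diet, each gene was fitted on the log2 CPM of Hbb-bs with diet as a factor. Of 13990 other genes, 3 rose with Hbb-bs and 0 fell (0.0214% called, all of them rising), and 2 of the 3 were Hbb-bt and Alas2. At an unadjusted p under 0.05 there were 875 genes (6.25%), of which 647 had slopes above 0. Hbb-bt had a slope of 0.98 per doubling of Hbb-bs (SE 0.08, edgeR adjusted p = 5.02e-07) and Alas2 0.84 (SE 0.13, adjusted p = 0.00818). The third was Slc25a37, mitoferrin-1, which brings iron into the mitochondria of red cell precursors, at 0.49 (SE 0.07, adjusted p = 0.00739). Hba-a1 and Hba-a2 had slopes of 0.80 and 0.80 (SE 0.13 each, adjusted p = 0.0126) and missed the threshold of 0.01. Hbb-bs and Hbb-bt can share reads, and the part of this in the slope was not tested.

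The calls leaned on the libraries included. Hbb-bt was called in all 20 fits that left out 1 library, Slc25a37 in 3 (without NP mouse 4, NP mouse 6 or LP mouse 13) and Alas2 in 2 (without NP mouse 4 or LP mouse 13), and in 17 of the 20 only Hbb-bt passed. Without LP mouse 13, 7 genes were called: Hbb-bt, Hba-a1 (0.94), Hba-a2 (0.93), Alas2 (0.98), Slc25a37 (0.54), Tent5c and Mkrn1. The slopes themselves moved little, between 0.69 and 0.94 for Hba-a1, 0.77 and 0.98 for Alas2 and 0.45 and 0.54 for Slc25a37 over these fits. With the first number of the library name as a term, only Hbb-bt passed, and the slopes were 0.61 for Hba-a1, 0.65 for Alas2 and 0.40 for Slc25a37. With Hba-a1 in place of Hbb-bs, Hba-a2, Alas2, Mkrn1, Tent5c and Hbb-bt were called and Slc25a37 (0.50) was not. With Alas2 in its place Slc25a37 was called (0.48). A slope of 1 means that a transcript doubled when Hbb-bs doubled.

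Slc25a37 measured 20.9 to 47.0 CPM over the 20 mice, highest in LP mouse 20, HF + LP mouse 3 (40.8) and HF mouse 2 (39.7), which are also high in Hba-a1 and Alas2. In HF against NP its log2 fold change was -0.01 (edgeR adjusted p = 0.992), beside 0.78 for Alas2. Tent5c, a poly(A) polymerase of late red cell precursors and lymphocytes, measured 3.94 to 21.9 CPM and led in the same 3 mice.

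**Figure D4:**
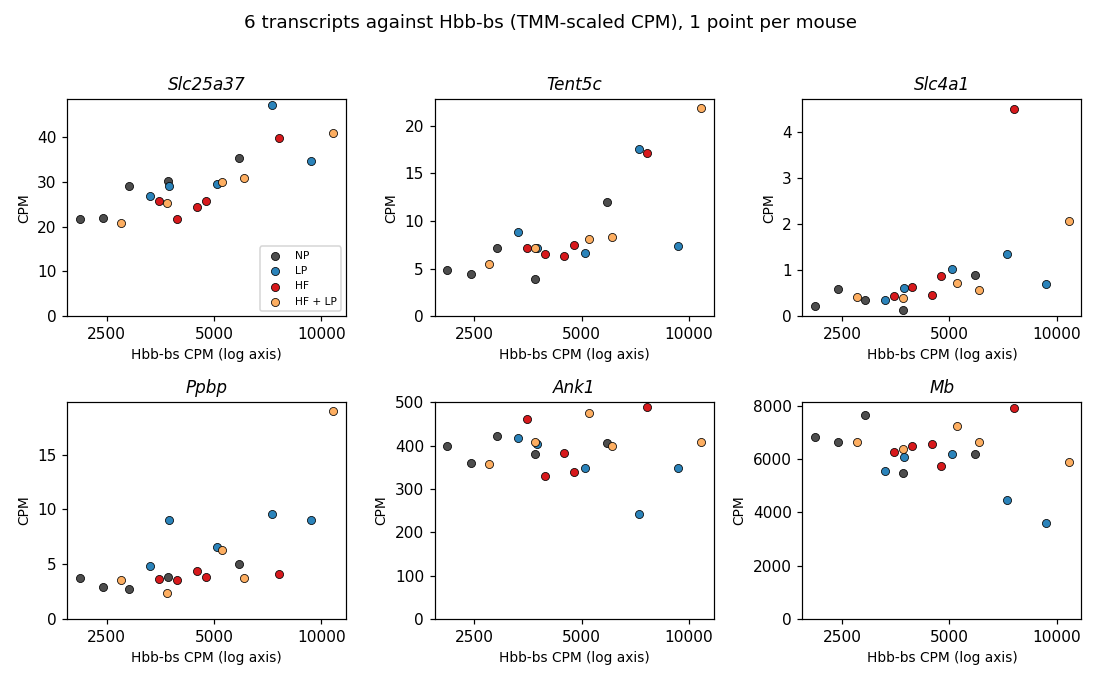
Each point is 1 mouse, with Hbb-bs CPM on a log axis and the CPM of Slc25a37, Tent5c, Slc4a1, Ppbp, Ank1 or Mb on a linear axis from 0, coloured by diet. Slc25a37 ranges from 20.9 CPM to 47.0 CPM (LP mouse 20) and is at 40.8 CPM in the mouse highest in Hbb-bs, HF + LP mouse 3, where Ppbp is highest at 18.99 CPM; Ank1 lies between 241 and 489 CPM, and Mb between 3605 and 7926 CPM.

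By Pearson's r of log2 CPM over the 20 mice, the 10 genes outside the set most like Hbb-bs were Slc25a37 (0.83), Mkrn1 (0.80), Gpx1 (0.78), Cd24a (0.78), Bpgm (0.78), Tradd (0.78), Plek (0.78), Ctla2a (0.77), Tent5c (0.77) and Anxa2 (0.74). Over the 10153 genes with a base mean above 50 other than the 5 described here, r had a median of -0.04 and 5th and 95th percentiles of -0.40 and 0.40. With the members included, Hbb-bt and Alas2 stood ahead of Slc25a37 in that order, and Hba-a2 and Hba-a1 just after it. Bpgm encodes the enzyme that sets the oxygen affinity of hemoglobin through bisphosphoglycerate, and Gpx1 encodes a peroxidase abundant in red cells and in many other tissues.

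Of 26 genes listed as red cell genes, 8 had a row that was used, and others such as Ahsp, Klf1, Gata1, Epb42 and Hemgn were not analysed here. Slc4a1, a defining membrane protein of red cells, was at a mean of 0.87 CPM, near 0. Ank1 at 389 CPM and Sptb at 76.5 CPM, which are also made in striated muscle, had slopes of -0.02 and 0.09 on Hbb-bs. Of the 7 tested, 0 were called. At an unadjusted p under 0.05, 3 had slopes above 0, among them Slc4a1 (1.35) and Tent5c (0.84), and 1 had a slope below 0. Over all 13990 genes, 647 had such a p with slopes above 0 and 228 with slopes below 0, or 6.25% in either direction. Rhd, a blood group protein gene, was at -0.24. Without LP mouse 13, Tent5c passed.

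Of 19 red cell genes with wider expression, 1 was called (Slc25a37), 8 had an unadjusted p under 0.05 and a slope above 0, and the median slope was 0.18. Over all 13990 genes 0.0214% were called, 647 had such a p and a slope above 0, and the median was -0.0004. The 4 with the highest counts were Bsg (-0.23), Prdx2 (-0.08), Cat (-0.07) and Gpx1 (0.32). None of the 14 heme synthesis genes was called, and their median slope was -0.01, with Alas1 at -0.08, Fech, which inserts the iron, at 0.03, Slc25a39 at 0.07 and Tmem14c at -0.03. Alas2, which was not on that list, had a slope of 0.84.

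Genes of heme and hemoglobin clearance and of iron handling gave 0 calls in 17 tested, with a median slope of 0.07, which was -0.0043 without LP mouse 13. Hamp, the iron hormone hepcidin, and Trf, the iron carrier transferrin, had an unadjusted p under 0.05 with slopes of 2.42 and 0.39 (edgeR adjusted p = 0.700 and 0.574), and without LP mouse 13 this held for 1 gene of the list with a slope above 0. The ferritin chains Fth1 and Ftl1 were at -0.04 and -0.13, Hmox2 at 0.07 and the heme transporter Slc48a1 at 0.06. Mb and Cygb, the other globins of the heart, were at -0.13 and 0.06. None of these passed.

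Markers of other blood cells were read the same way. All 10 platelet genes tested had slopes above 0, with a median of 0.60 and 6 at an unadjusted p under 0.05, among them Nrgn (0.81), Ppbp (0.79) and Pf4 (0.31), and 0 were called. Over all 13990 genes 875 (6.25%) had such a p, of which 647 had slopes above 0. B cell genes had a median of 0.44 (13 of 13 above 0) and T and NK cell genes 1.32 (9 of 9), with 0 called in either list. Without LP mouse 20 these medians were 0.39 and 0.40, and that of the platelet genes was 0.64. The platelet sum was highest in HF + LP mouse 3 (167 CPM) and next in LP mouse 13 (156 CPM). Without LP mouse 13 the platelet median was 0.70, and the platelet slopes without HF + LP mouse 3 were not examined. Neutrophil genes had a median of 0.07 and circulating monocyte genes of 0.27, with 0 called, and without LP mouse 20 these were 0.0313 and 0.11.

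All 14 cardiomyocyte genes had slopes below 0, with a median of -0.15 (-0.0800 without LP mouse 13) and 0 called, and the 12 endothelial genes had a median of -0.01. The 10 atrial genes were all above 0, with a median of 1.13 that became 0.30 without LP mouse 13, and 0 were called. The 14 hypoxia response genes had a median of -0.0003.

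**Figure D5:**
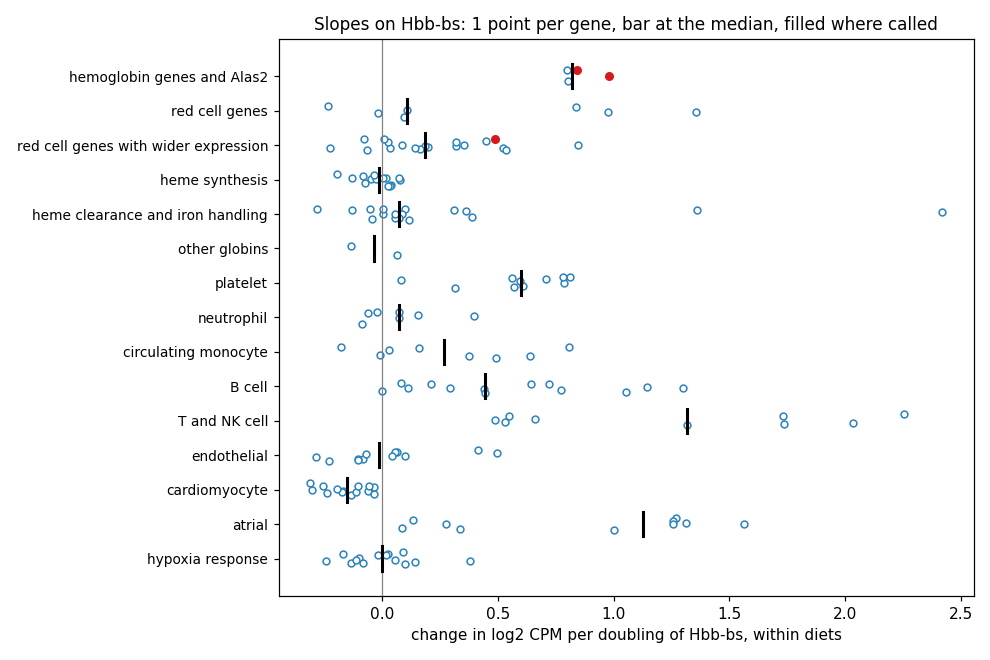
Each point is 1 gene, placed by its change in log2 CPM per doubling of Hbb-bs within diets, in rows for the hemoglobin genes with Alas2 and for each gene list, with a bar at the median and filled points for called genes. The hemoglobin genes and Alas2 lie between 0.80 and 0.98, platelet genes have a median of 0.60, and cardiomyocyte genes all lie below 0.

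In the diet comparisons the same lists gave 0 calls in each of the 4 comparisons and the interaction, though 1 cardiomyocyte gene was called in HF against NP without LP mouse 13 or without LP mouse 20. The red cell genes had a median log2 fold change of 0.15 in HF against NP and -0.09 in LP against NP, and those with wider expression 0.11 and 0.12. The medians in LP against NP without LP mouse 13 were 0.0219 and 0.0189, and without LP mouse 20 they were -0.0270 and 0.0734. Heme synthesis genes had medians of -0.05 and -0.08, clearance and iron genes 0.03 and -0.02, and hypoxia response genes 0.01 and 0.01. The LP values of these 3 lists without LP mouse 13 were -0.13, -0.0960 and 0.0473. Slc4a1 was at 1.56 in HF against NP (unadjusted p = 0.0312, edgeR adjusted p = 0.314), with HF mouse 2 at 4.50 CPM against 0.449 to 0.874 CPM in the other 4 HF mice.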

How the data were processed

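RNA of 20 left ventricles was sequenced from transcript 3′ ends, and the authors made gene counts with BlueBee software on GRCm38 and ran DESeq2 1.22.2, per the submitters' processing notes. The counting program and annotation are not given in the sources used here. The deposited counts are whole numbers with no normalization, for 15956 genes with at least 60 counts in all.

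Counts were tested with edgeR 4.0.16 (R 4.3.3): filterByExpr by diet, TMM scaling, a quasi-likelihood fit of all 20 libraries and Benjamini-Hochberg adjustment over 13991 genes. A gene was called at adjusted p under 0.01 and base mean over 50. Correlations were called at adjusted p under 0.05. The slope fit had diet as a factor. Log2 CPM used a prior count of 2. Permutation tests were two-sided, exact for 2 groups and with 100000 draws for correlations. DESeq2 1.42.0 and other settings were alternatives. Both fits were tested on simulated counts. Each replicate is 1 mouse, so p-values measure the spread between mice. Gene coordinates are from the GRCm38 annotation and promoters from RefSeq.

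All 5 members were named in every comparison. Of each list the rule named up to 4 genes of highest mean count and any called gene, of the slope fit all called genes, and the 10 genes most like Hbb-bs. Slc4a1, Hamp and Trf in the lists were named after their values were seen. A gene of the red cell list is not reported here. Members and lists were chosen with earlier results of these data known. Intervals of shares cover counting error only.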

Additional observations from a re-analysis of the deposited data

Results flagged for a closer look

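In a group of 5 mice, a mouse was marked where its gap to the nearest other mouse exceeded 0.71 of the range of the group. This marked 14 of the 44 groups examined. For normally distributed values chance marks about 1 group in 20. The rate for CPM and ratios, which need not be so distributed, was not examined. The measures are correlated, so the marks are not independent.

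NP mouse 3 was marked as high for Hba-a1 (2373 CPM), Hba-a2 (1403 CPM) and Alas2 (46.5 CPM). LP mouse 20 was marked as high for Hba-a1 (2819 CPM), Hba-a2 (1731 CPM) and Alas2 (62.9 CPM). HF mouse 2 was marked for Hbb-bt (1264 CPM) and Alas2 (76.1 CPM), and HF + LP mouse 3 for Hbb-bt (1642 CPM).

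The ratio of β-globin to α-globin counts was marked for NP mouse 4 (2.797) and LP mouse 13 (5.10). Alas2 per 1000 β-globin counts was marked as low for LP mouse 13 (2.89). Alas2 per 1000 α-globin counts was marked as high for NP mouse 5 (16.6) and HF mouse 2 (18.1). No cause was tested for any of these values.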

How the results depend on the processing

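None of the 5 genes was called under any alternative, and 789 of their fold changes kept their direction while 26 did not. In HF + LP against HF, leaving out 1 mouse gave -0.14 to 0.46 for Hbb-bs, -0.31 to 0.50 for Hbb-bt and -0.29 to 0.42 for Alas2, and library totals alone gave -0.0485 for Alas2. In HF + LP against LP it gave -0.38 to 0.24 for Hbb-bs, -0.33 to 0.31 for Hbb-bt and -0.11 to 0.52 for Alas2. There Hbb-bs was at 0.0034 with no filter, 0.0325 with the library number, 0.00230 without mitochondrial genes and 0.24 without LP mouse 13 and NP mouse 4 (chosen after seeing the data), and Hbb-bt at -0.0168 with library totals alone. For the interaction, leaving out 1 mouse gave -0.54 to 0.12 for Hba-a1 and -0.61 to 0.0668 for Hba-a2.

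Same-numbered HF and HF + LP mice also shared the first number of the library name. The sources used here name no pairing of mice. Deviations of these pairs correlated between -0.55 and 0.48, which cannot decide whether same-numbered mice form a block. With the replicate block Hbb-bs was at -0.0086 in LP against NP and 0.62 in HF + LP against LP, and the interaction was 0.0230 for Hba-a1, 0.0036 for Hba-a2 and 0.13 for Hbb-bs. The block left 2 genes called in HF against NP and 0 in the slope fit.

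The slope fit called 3 genes, 9 with DESeq2, 7 with no diet term or without LP mouse 13 and NP mouse 4, 5 with library totals alone, a minimum of 10 counts, a threshold of 0.05, or Hba-a1 or Alas2 in place of Hbb-bs, and 1 with the library number. Leaving out 1 mouse gave 1 to 7. HF against NP called 37 genes, 163 with DESeq2, 157 at 0.05, 61 from the 2 diets alone, 25 with Hbb-bs in the model, 21 with library totals and 20 (without NP mouse 6 or HF mouse 4) to 69 (without LP mouse 13) with 1 mouse left out. HF + LP against LP called 14, 84 with DESeq2, 45 at 0.05, 5 with the library number, 4 with Hbb-bs in the model, 0 with the block or from the 2 diets alone, and 1 (without HF + LP mouse 2 or 4) to 15 with 1 mouse left out. Any difference among diets called 67, 327 with DESeq2, 252 at 0.05, 38 with the library number, 2 with the block and 33 to 101 with 1 mouse left out. The hemoglobin share of nuclear counts alone was 0.971%, 1.63%, 1.45% and 1.68% on NP, LP, HF and HF + LP, and per 100 cardiomyocyte counts 7.98, 16.2, 13.8 and 15.99. The r of Hbb-bs with body weight became 0.0271 (rho), 0.14 without the 2 farthest mice and 0.0554 without LP mouse 13. With Myl7 it was 0.12 over the 20 mice, -0.21 without the 2 farthest mice and -0.0198 without LP mouse 13. That with S100a8 became -0.0064 within diets. Where a value moved, the cause was not tested.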
